A study of Arabidopsis thaliana with 96 samples.

Results

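The chromatin accessibility of leaf nuclei was compared between Cvi-0, an accession of *A. thaliana* from the Cape Verde Islands, and Bur, through the ATAC-seq peak lists deposited for each. The comparison takes the 4 lists labelled Cvi-0 and the 4 labelled Bur, 8 of the 96 lists of the series, chosen by their labels and not by their values. Both are natural accessions. The labels give leaf as the tissue, growth at 22°C under 16 h of light and 8 h of dark, and sorting of nuclei before the Tn5 reaction for both accessions alike. The labels give no place of collection, no age and no number of plants for either. The label Bur has no suffix, and the accessions that the study assembled include Bu-0 and no Bur, so which stock Bur is was not resolved and the label is kept here. The study used these data to ask how conserved noncoding sequences that vary between accessions lie relative to open chromatin. The lists hold no RNA level, so the tissue label was not checked against expressed markers.

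ATAC-seq rests on Tn5, an enzyme that inserts sequencing adapters where DNA is not wrapped in nucleosomes, so a peak marks a stretch of open chromatin. In Arabidopsis leaves most such stretches lie in promoters, close upstream of a transcription start. The pericentromeres, the regions on both sides of each centromere, are packed with transposons and carry few genes and few open sites, while the gene-rich arms hold most of them.

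The 5 windows shown here belong to sites described below: the promoters of CCA1, LHY and GI, which are the clock sites past 2-fold higher in Cvi-0, and those of AT3G22100 and AT1G65349, which were higher in Bur. These were taken because each holds no annotated exon base, and among the named sites higher in Bur no other window met that. Each line gives 101 bases around the summit, read from the RefSeq reference TAIR10.1 and not from the Cvi-0 or Bur genome. Capitals mark a match to the G-box (CACGTG), a binding motif known from light-regulated and clock-regulated promoters. The CCA1 line is chr2:19245341-19245441 on the + strand, LHY is chr1:38007-38107 on the - strand, GI is chr1:8060746-8060846 on the + strand, AT3G22100 is chr3:7784651-7784751 on the - strand and AT1G65349 is chr1:24276213-24276313 on the + strand.
CCA1: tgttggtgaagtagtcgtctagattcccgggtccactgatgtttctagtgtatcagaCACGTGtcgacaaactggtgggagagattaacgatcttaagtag
LHY: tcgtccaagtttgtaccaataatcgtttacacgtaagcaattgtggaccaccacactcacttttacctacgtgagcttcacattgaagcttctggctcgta
GI: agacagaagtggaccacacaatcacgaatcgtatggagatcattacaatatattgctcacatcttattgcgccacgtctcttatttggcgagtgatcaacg
AT3G22100: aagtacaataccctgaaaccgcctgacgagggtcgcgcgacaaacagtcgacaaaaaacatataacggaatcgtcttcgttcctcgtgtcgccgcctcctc
AT1G65349: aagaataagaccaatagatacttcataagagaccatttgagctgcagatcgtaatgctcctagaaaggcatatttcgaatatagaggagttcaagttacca

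A match of these letters is a description and not a bound site. Searched on both strands, the G-box was in 14.2% of the same-length reference windows at 2030 matched sites, the sites defined below, and in 15.3% of the 334 of them that were 2-fold higher in Cvi-0. Other motifs were searched in the same way. The evening element (AAATATCT) was in 1.58% of the 2030 windows and in 3.29% of the 334, or 11 windows. The I-box (GATAAG) was in 7.44% and 9.58%, and the TATA box (TATAAA) in 15.1% and 13.5%. These differences were not tested. The CCA1 window holds a G-box and the LHY and GI windows hold none, while the window of AT3G27360, a site higher in Bur, holds one.

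Each file holds between 1909898 and 1958103 tags (mapped reads) for Cvi-0, and between 2097761 and 2145427 tags for Bur. The 4 files of an accession were compared before they were averaged, by a dispersion index of shared summits that is 1 for draws from the same library. The index was 0.852 to 0.949 over the 6 pairs of Cvi-0 files and 0.816 to 0.939 over the 6 pairs of Bur files, against 6.22 to 7.13 over the 16 pairs of a Cvi-0 and a Bur file. The 4 files of an accession therefore differed by less than sampling noise and were counted as 1 sample, so no test between the accessions was possible and no p-value is given. Ranges over files, and exact intervals, cover counting error only. The authors called peaks in each file by itself and extended each tag to a fragment length of 146 to 155 bp in Cvi-0 files and of 155 to 168 bp in Bur files.

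Cvi-0 had more peaks than Bur at slightly fewer tags. The Cvi-0 files list 11002, 10820, 10982 and 11091 nuclear peaks, against 6566, 7435, 6610 and 6406 in the Bur files. The mean was 1.62 times as high in Cvi-0, and the ranges were well apart, although Bur replicate 2 stood above the other Bur files. Peaks covered 2.53% to 2.66% of the nuclear genome in Cvi-0 and 1.49% to 1.70% in Bur, a ratio of 1.62. Among the 17 accessions whose chromosomes carry plain names, Cvi-0 ranked 8th and Bur 16th in number of peaks. The local background also moved with the accession: it lay above the genome-wide floor (tags times fragment length over genome size) at 42.6% to 43.5% of Cvi-0 peaks and at 23.0% to 26.0% of Bur peaks. Its part in the number of peaks was not tested.

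Peak width did not separate the accessions. The median width of a file was 248 to 259 bp in Cvi-0 and 242 to 256 bp in Bur, so the files overlapped. Peaks of 600 bp or more made up 2.19% to 2.31% of the Cvi-0 lists and 1.95% to 2.54% of the Bur lists. Neighbouring summits lay closer together in Cvi-0, with a median distance of 5767.5 to 5882 bp against 8784.5 to 9975 bp in Bur. A list with more peaks has closer summits by construction, and the product of median distance and number of peaks was 63.6 to 64.0 Mb in Cvi-0 and 63.5 to 65.3 Mb in Bur, with overlapping files. Among the 5000 highest peaks of each file the accessions had equal numbers, and there the ratio of the distances was 0.952 in place of 0.610, while Cvi-0 peaks were 1.16 times as wide as Bur peaks.

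Peaks were also somewhat taller in Cvi-0. Pileup is the height of the stacked extended tags at a summit, and it is given here per 1000000 tags of the file (ppm), a level that depends on the fragment length. The median summit had 9.70 to 9.95 ppm in Cvi-0 files and 8.10 to 8.95 ppm in Bur files, a ratio of 1.14. At the 90th percentile the level was 22.5 to 22.8 ppm in Cvi-0 and 15.7 to 17.4 ppm in Bur. The ratio of medians changes direction with the scaling: divided by the summed pileup of the 3000 highest summits of each file, in place of tags, it was 0.809. The organelle peaks, which come from DNA outside the nucleus, were lower in Cvi-0 than in Bur. Chloroplast peaks had a median of 495 to 541 ppm in Cvi-0 against 617 to 663 in Bur, and mitochondrial peaks 47.1 to 50.2 ppm against 72.9 to 80.9 in Bur. The part of organelle tags in the nuclear levels was not tested.

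**Figure D1:**
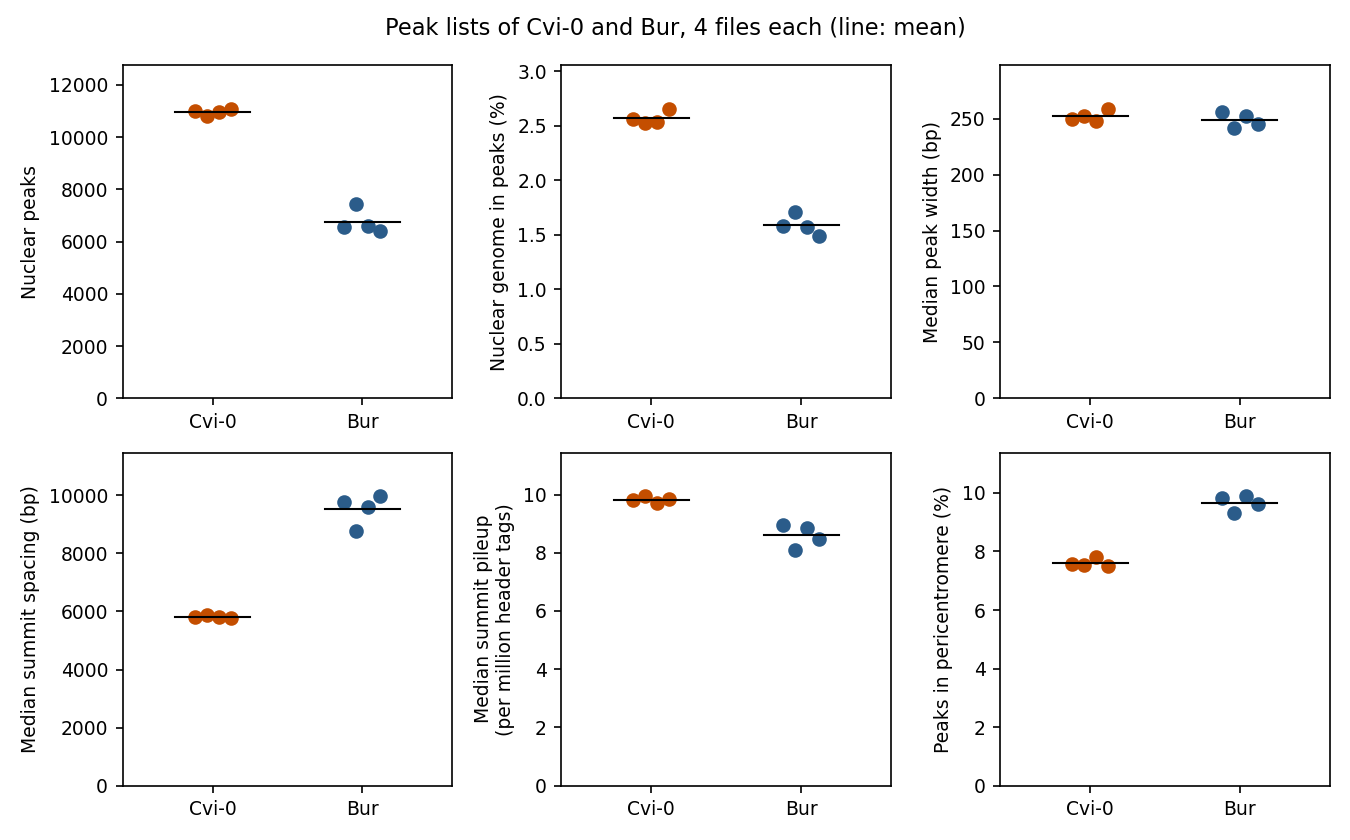
Number of nuclear peaks, share of the nuclear genome in peaks (%), median peak width (bp), median distance between neighbouring summits (bp), median summit pileup (ppm) and share of peaks in the pericentromere (%) in each of the 4 Cvi-0 files and the 4 Bur files. Points are files and lines are means, and every axis starts at 0. The 2 accessions overlap in width only.

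Before peaks could be placed along the chromosomes, the direction of each chromosome had to be checked, because each accession is listed on its own sequences. Against Og, an accession listed on the reference sequence names, the summits of Cvi-0 chromosome 3 lined up at 49.4% of sites when the sequence was read backwards and at 13.96% when it was read as listed. Chromosomes 1 and 5 of Cvi-0 were also reversed, with 47.9% and 46.0% of sites aligned backwards against 14.1% and 14.4% as listed. Bur was reversed on chromosomes 1 and 5, with 57.6% and 60% of sites aligned backwards against 21.2% and 19.96% as listed. The accessions thus ran in opposite directions on chromosome 3 only. All reversed chromosomes were turned round before positions were compared.

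Chromosome 3 decides what a comparison by listed position shows. With positions as listed, 6 of 220 windows of 500 kb held at least a 2-fold higher share of peaks in Cvi-0, with the files of the accessions apart (2.73%), and 8 held at least a 2-fold lower share (3.64%). All 14 lie on chromosome 3, where the ratio of shares (Cvi-0 over Bur) ran from 0.0553 to 35.6. Once the Cvi-0 sequence was turned, none of the 42 windows of chromosome 3 with enough peaks to be tested was past 2-fold. The shares of the 2 accessions over all 47 windows, the 5 untested ones included, had a Pearson correlation of 0.929, against -0.068 as listed.

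**Figure D2:**
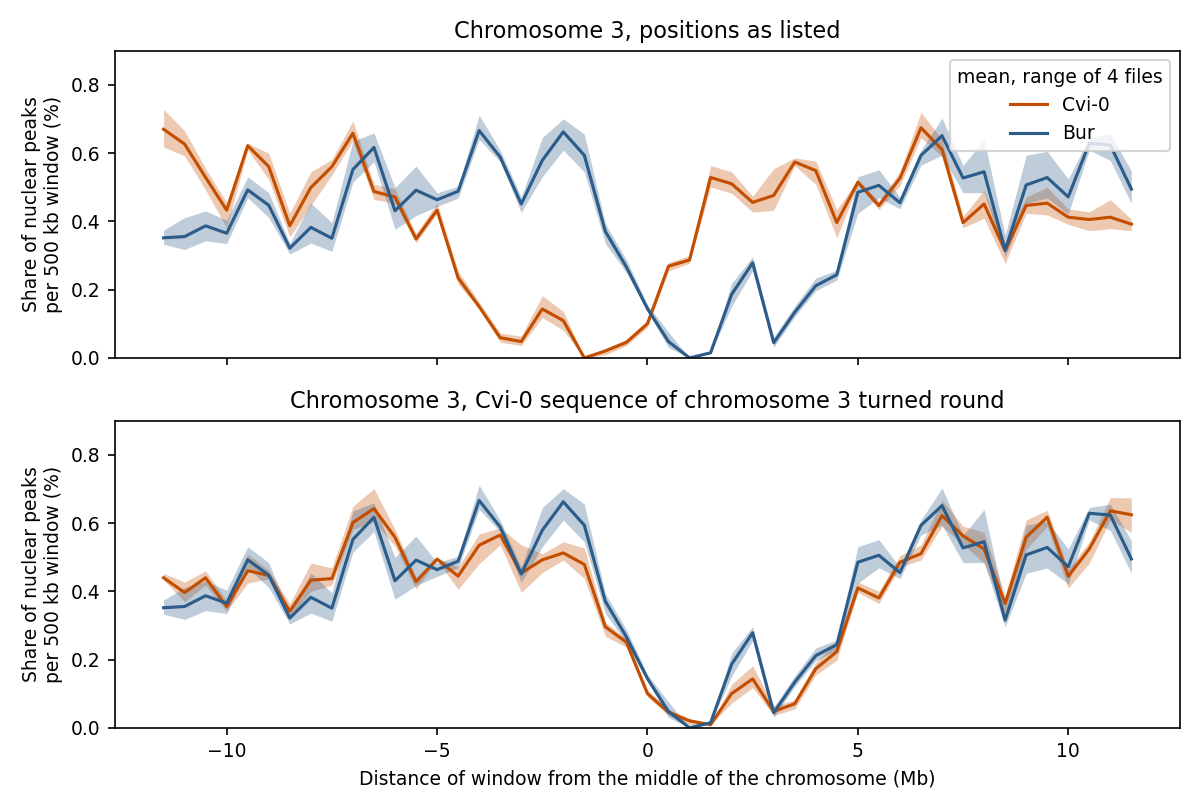
Share of nuclear peaks (%) per 500 kb window of chromosome 3 against the distance from the middle of the chromosome (Mb), for positions as listed (top) and with the Cvi-0 sequence turned round (bottom). Lines are means and bands are ranges over 4 files. As listed, the low stretch of Cvi-0 and that of Bur fall on opposite sides of the middle, and after turning they lie on the same side.

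In the turned positions the profiles of both accessions followed the same course: few peaks around the centromeres and many in the arms. Over all 240 windows the shares correlated at 0.892, as a description of windows that share gene density. Of 217 windows with at least 20 peaks over both accessions' means, 0 were 2-fold higher in Cvi-0 (0%) and 0 were 2-fold lower (0%). The ratio ran from 0.515 to 1.92, with quartiles of 0.875 and 1.14. By the weaker rule that no Cvi-0 file overlaps a Bur file, 44 windows were higher in Cvi-0 (20.3%) and 51 were lower (23.5%).

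The pericentromere held a smaller share of Cvi-0 peaks than of Bur peaks. Within 2.5 Mb of 15, 4, 14, 4 and 12 Mb on chromosomes 1 to 5, the share was 7.56%, 7.52%, 7.82% and 7.51% in the Cvi-0 files, against 9.82%, 9.32%, 9.89% and 9.63% in the Bur files. No Cvi-0 file reached a Bur file, and the exact Clopper-Pearson intervals of the files, 7.03% to 8.34% over the Cvi-0 files and 8.67% to 10.6% over the Bur files, did not meet. The mean difference was -2.06 percentage points. It was -1.67 percentage points (6.79% in Cvi-0 against 8.46% in Bur) without the window from 3 to 3.5 Mb on chromosome 2, a stretch with a copy of mitochondrial DNA whose reads are uncertain, and the files stayed apart. Without turning any chromosome it would have been 1.27 percentage points in the other direction (12.3% in Cvi-0 against 11.0% in Bur). In number rather than share, Cvi-0 had more pericentromeric peaks, 814 to 859 per file against 617 to 693 in Bur.

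Each of the 5 chromosomes showed the lower pericentromeric share in Cvi-0. On chromosome 2, 11.99% to 12.6% of Cvi-0 peaks lay in the pericentromere, against 16.3% to 17.6% of Bur peaks. Without its window from 3 to 3.5 Mb the share was 7.81% to 7.92% in Cvi-0 and 9.86% to 10.5% in Bur, below that of chromosome 4 in both accessions (11.01% in Cvi-0 and 12.96% in Bur on average). On chromosome 3 the share was 4.68% to 5.56% in Cvi-0 and 6.48% to 7.005% in Bur. The smallest gap was on chromosome 1, with 5.38% to 5.57% in Cvi-0 and 6.02% to 6.60% in Bur. The ranges of the files did not overlap on any chromosome. In the pericentromeric share over all chromosomes, Cvi-0 ranked 8th and Bur 3rd among the 17 plain-named accessions. Among the 14 other than No, Nw and old, which the study left out for library quality, Cvi-0 ranked 5th and Bur 1st.

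The same gradient ran along the arms. Within 1 Mb of a centromere lay 2.06% to 2.30% of Cvi-0 peaks and 3.01% to 3.42% of Bur peaks. Between 3 and 5 Mb lay 17.2% to 17.4% of Cvi-0 peaks and 19.5% to 19.8% of Bur peaks. Beyond 8 Mb the order turned, with 48.2% to 48.6% of Cvi-0 peaks and 42.6% to 43.4% of Bur peaks. By windows, the 28 pericentromeric windows had a median ratio of 0.816, with 23 below 1, while the 189 arm windows had a median ratio of 1.03.

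**Figure D3:**
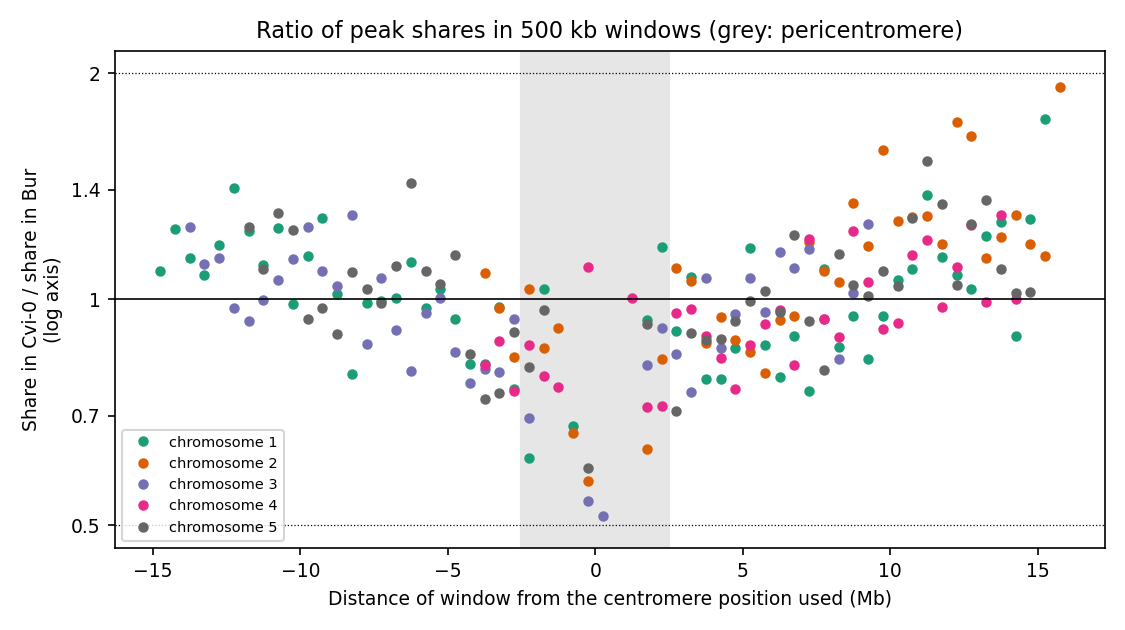
Ratio of the share of nuclear peaks in Cvi-0 to that in Bur (log axis) for the 217 windows of 500 kb with at least 20 peaks, against the distance from the centromere position used (Mb), coloured by chromosome. The grey band is the pericentromere and the dotted lines mark 2-fold. No window lies beyond 2-fold, and the median is 0.816 in the grey band and 1.03 outside it.

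No window passed the 2-fold rule, so the 5 highest and the 5 lowest ratios are given as windows chosen after their values were seen, with positions in the direction of the reference. The highest ratio was at the end of chromosome 2, from 19.5 to 20 Mb, where the Cvi-0 files had 20, 17, 19 and 22 peaks and the Bur files 5, 7, 6 and 7. The ratio of shares there was 1.92, with an exact interval for counting error of 0.795 to 6.24. The 4 next windows were at the end of chromosome 1 from 30 Mb (1.74) and on chromosome 2 from 16 Mb (1.72), from 16.5 Mb (1.65) and from 13.5 Mb (1.58). Thus 4 of the 5 lie in the distal arm of chromosome 2. Their counting intervals lay above 1 for the windows from 30 Mb (1.004 to 3.29) and from 16 Mb (1.02 to 3.23), and held 1 for the rest.

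The 5 lowest ratios all lay in the pericentromere. From 14 to 14.5 Mb on chromosome 3 the Cvi-0 files had 13, 13, 20 and 17 peaks and the Bur files 19, 19, 18 and 19, a ratio of shares of 0.515. The next were from 13.5 Mb on chromosome 3 (0.539), from 3.5 Mb on chromosome 2 (0.573), from 11.5 Mb on chromosome 5 (0.596) and from 12.5 Mb on chromosome 1 (0.615). All 5 counting intervals held 1, and the lowest and highest bounds were 0.211 and 1.26. At 3 of these 5 windows Bur had the highest share of the 17 plain-named accessions, and at 4 of the 5 windows with the highest ratios it had the lowest, while Cvi-0 ranked between 3rd and 12th in all 10.

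By chromosome, Cvi-0 had a higher share than Bur on chromosomes 1 (25.5% to 25.8% against 25.3% to 25.4%), 2 (17.8% to 18.0% against 16.7% to 17.4%) and 5 (21.9% in every file against 21.3% to 21.7%). It had a lower share on chromosomes 3 (18.6% to 18.8% against 19.1% to 19.4% in Bur) and 4 (15.7% to 16.0% against 16.4% to 16.97% in Bur). The files did not overlap on any of the 5, but the exact intervals of the files overlapped on all 5. On chromosome 1 the difference of 0.316 percentage points became -0.645 among the 5000 highest peaks of each file.

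Single sites were compared only at a stated local offset, because positions on the Cvi-0 and Bur sequences differ by insertions and deletions. The offset between the 2 sequences was first estimated from at least 2 agreeing pairs of summits in each 100 kb window, which gave one to 975 windows, 173 of them on 2 pairs alone. Each site then took the median offset of its nearest pairs. After turning, the window offset ran from -2537 to 7495 bp on chromosome 1, from -341 to 8535 bp on chromosome 2, from -10472 to -962 bp on chromosome 3, from -9058 to 2998 bp on chromosome 4 and from -2101 to 6390 bp on chromosome 5. A site is a group of summits of 1 accession, and 6839 sites were listed in all 4 Cvi-0 files and 3536 in all 4 Bur files. An offset could be given to 6703 of the Cvi-0 sites and 3435 of the Bur sites.

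Most sites of Bur were also sites of Cvi-0. Of the Cvi-0 sites 58.6% had a Bur summit within 50 bp, and of the Bur sites 67.7% had a Cvi-0 summit within 50 bp. Within 1 kb the shares were 85.5% of Cvi-0 sites and 96.0% of Bur sites. These are sites listed in all 4 files of their accession, and among sites listed in any file the shares were 36.2% of Cvi-0 and 53.7% of Bur sites within 50 bp, and 66.4% and 91.5% within 1 kb. The unmatched Cvi-0 sites were mostly low ones: in 4 equal groups from the lowest to the highest pileup, 68.2%, 85.1%, 92.7% and 96.1% of Cvi-0 sites had a Bur summit within 1 kb, while the same 4 groups of Bur ranged from 94.3% to 97.4%.

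At 2053 sites listed in all 8 files, normalized pileup was mostly higher in Cvi-0. The median level was 17.1 ppm in Cvi-0 and 10.7 ppm in Bur, and the median log2 ratio was 0.66, or 1.58-fold, with quartiles of 0.39 and 0.90. The ratio was above 0 at 1900 sites. By the rule of size, at least 2-fold with files apart, 336 sites were higher in Cvi-0 (16.4%) and 5 were lower (0.244%). By files apart alone, 1272 were higher (62%) and 59 were lower (2.87%). Since nearly the whole set is shifted, the counts were also taken relative to the median, which left 5 sites 2-fold higher (0.244%) and 72 sites 2-fold lower (3.51%). The direction of the excess thus depends on whether the common shift is kept.

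**Figure D4:**
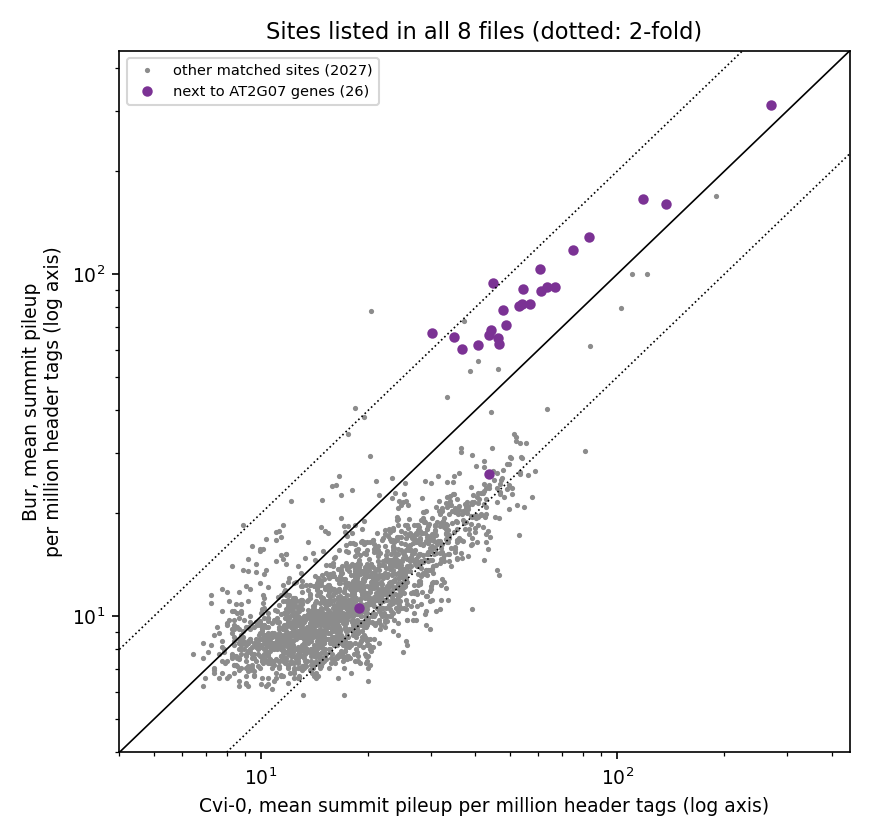
Mean summit pileup (ppm) in Cvi-0 (horizontal, log axis) against Bur (vertical, log axis) at the 2053 sites listed in all 8 files. The solid line is equality, the dotted lines mark 2-fold, and purple points are the 26 chromosome 2 sites next to AT2G07 genes. Most sites lie below the line (1900 of 2053), and 24 of the 26 purple points lie above it.

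Among the matched sites the shift was larger at higher levels and smaller at the pericentromere. In 4 equal groups from the lowest to the highest mean level, the median log2 ratio was 0.42, 0.65, 0.73 and 0.83. This rise is not evidence of a trend with level, because sites too low in Bur to be listed could not enter. The lowest group had a Bur median of only 8.23 ppm. The groups were also formed from the same levels as the ratio. The part of this choice in the rise was not tested. The median log2 ratio was 0.67 at 1922 sites of the arms and 0.28 at 131 pericentromeric sites. Across the chromosomes it ranged from 0.61 on chromosome 3 to 0.70 on chromosome 1. Sites within 1 kb of an annotated gene start (1570 sites) and sites farther away (460 sites) both had a median of 0.67. The remaining 23 sites, which had no reference position, had a median of 0.04, and 12 of them were above 0.

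The 5 accessions listed on the reference sequence names (Ad-0, En-2, Hi, Mt and Og) give a partial scale for these levels. Each counts only where its own list holds the site, so its low levels are missing and the count below all is raised. Their lists also differ in size, from 3501 sites in all 4 files in Hi to 12322 in Mt. At 1690 sites that at least 3 of them also list, Cvi-0 was above all of them at 270 sites and below all at 51. Bur was above all of them at 25 sites and below all at 601. Among the 297 of these sites that were 2-fold higher in Cvi-0, Cvi-0 stood above the other accessions at 80 and Bur stood below them at 189. These sites were chosen by a high ratio of Cvi-0 to Bur, so both counts are raised by the choice. Which of the 2 accessions departs from the others cannot be told from them.

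Named genes are those whose annotated start lies within 1 kb of a reference-named summit at the site, with coordinates on TAIR10.1. Of the 10 sites with the largest ratios, 5 had such a gene. The largest was in an exon of AT1G30590 (chr1:10835735-10840872, - strand), which encodes an RRN3-type initiation factor of RNA polymerase I. The Cvi-0 files had 37.8, 44.5, 31.2 and 43.5 ppm there, against 11.3, 10.01, 13.1 and 7.52 ppm in the Bur files, a log2 ratio of 1.91. The lowest Cvi-0 file was more than 2-fold above the highest Bur file.

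RDUF1 (AT3G46620, chr3:17178601-17180559, - strand) encodes a RING-type ubiquitin ligase of the drought response. Its site, in an exon 345 bp after the start, had 45.5, 51.8, 45.5 and 43.5 ppm in Cvi-0 and 18.4, 11.0, 9.32 and 14.1 ppm in Bur (log2 ratio 1.82). CAB1 (AT1G29930, chr1:10477885-10479114, + strand) encodes a chlorophyll a/b-binding protein of the light-harvesting antenna. At its start the files had 24.3, 31.9, 24.5 and 22.3 ppm in Cvi-0 and 8.01, 10.01, 6.99 and 7.99 ppm in Bur (log2 ratio 1.64). CAB1 has near-identical neighbours, CAB2 and CAB3, so its reads may be shared with theirs. The other two were at the starts of AT4G01330, a protein kinase gene (29.7 ppm in Cvi-0 against 9.18 in Bur), and AT4G27720, a gene of the major facilitator family of transporters (29.0 against 9.42 in Bur).

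The smallest ratio was at a pericentromeric site with no reference-named summit, chr5:15241337-15241573 on the Cvi-0 sequence as listed, which lies at chr5:15242252-15242702 on the Bur sequence. It had 19.7, 20.4, 21.4 and 19.7 ppm in Cvi-0 and 83.4, 74.4, 78.8 and 74.7 ppm in Bur, a log2 ratio of -1.94. Without Bur replicate 4 the local offset paired it with another Bur site and the log2 ratio was -2.90, so the pairing at this place is uncertain.

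Among the 10 smallest ratios, 7 had a gene start within 1 kb. P5CR (AT5G14800, chr5:4785960-4787996, - strand) encodes the reductase of the last step of proline synthesis. Its site had 21.2, 19.4, 20.9 and 16.6 ppm in Cvi-0 and 36.7, 36.2, 42.9 and 37.6 ppm in Bur (log2 ratio -0.97). The files were well apart, but the ratio stayed just short of 2-fold.

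AT3G22100 (chr3:7783638-7784469, - strand), whose window is printed above, is annotated as encoding a bHLH-type transcription factor. It had 6.73, 7.33, 8.68 and 12.9 ppm in Cvi-0 and 19.3, 18.6, 18.2 and 17.9 ppm in Bur (log2 ratio -1.05). The Bur files were close together and the Cvi-0 files spread widely, without overlap. The site at the histone gene AT3G27360 averaged 12.2 ppm in Cvi-0 and 21.8 in Bur, and that at AT4G00960, a protein kinase gene, 17.6 ppm in Cvi-0 and 34.2 in Bur. The remaining 3 were next to uncharacterized genes: AT5G28345 (18.3 against 40.7 in Bur), AT1G65349 (37.1 against 72.8 in Bur) and AT2G07629 (44.9 against 94.4 in Bur).

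AT2G07629 belongs to a stretch near the centromere of chromosome 2 where the reference carries a large nuclear copy of mitochondrial DNA. Such copies are nearly identical to the organelle, so reads of both cannot be kept apart with certainty. The 26 matched sites next to genes with AT2G07 identifiers lay between 2899843 and 3495157 bp on the Cvi-0 sequence. Their median log2 ratio was -0.60, or 0.658-fold, with files apart and lower in Cvi-0 at 23 sites and higher at 2. The median level was 50.8 ppm in Cvi-0 and 81.2 ppm in Bur.

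The mitochondrial peaks moved alike, with a ratio of 0.628 between the accessions, and their part in the AT2G07 sites was not tested. These sites made up 24 of the 153 sites with a log2 ratio below 0, while 48 of the 153 were pericentromeric. Without them, the median of the other 105 pericentromeric sites was 0.42, and 3 sites in place of 5 were 2-fold lower in Cvi-0.

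Genes of the circadian clock, light harvesting, flowering time and glucosinolate synthesis were looked up as lists, since these traits vary among accessions or dominate leaf promoters. The circadian clock runs on morning factors that repress evening genes and the reverse. Of its 11 listed genes, 6 had a site in all 8 files, and all 6 were higher in Cvi-0 with files apart, 3 of them 2-fold (16.4% of all matched sites were). The median log2 ratio was 0.96, against 0.66 over all matched sites, of which 62% were apart in that direction. The common direction covers only sites listed in all 8 files. By reference positions of each accession's own sites, 6 of the 11 genes had a Cvi-0 site and 8 a Bur site within 1 kb. The Cvi-0 count leaves out TOC1, whose Cvi-0 site matched in all 8 files but had no reference position of its own. PRR7 had such a site in Bur only, at 19.3 ppm in 3 files, but a Cvi-0 site without a reference position would not be counted. PRR9 had 19.2 ppm in 4 Cvi-0 files against 6.62 ppm in 2 Bur files.

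CCA1 (AT2G46830, chr2:19245591-19248915, + strand) is a morning factor, and its summit lay 200 bp upstream of the start, in the window printed above. It had 47.6, 41.4, 37.3 and 45.6 ppm in Cvi-0 and 21.7, 19.5, 18.2 and 20.2 ppm in Bur (log2 ratio 1.11). LHY, the partner of CCA1, had 28.5, 27.7, 24.0 and 27.4 ppm in Cvi-0 and 13.7, 12.4, 10.7 and 9.87 ppm in Bur (1.21). Both morning promoters were more than 2-fold higher in Cvi-0, with the common shift of all matched sites kept. By log2 ratio LHY ranked 110th and CCA1 201st of the 2053 matched sites. In the third and the highest of the 4 groups by mean level, 21.4% and 27.5% of sites were 2-fold higher.

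GI (AT1G22770, chr1:8061751-8067790, + strand), an evening gene that links the clock to flowering, had the highest level of the clock sites, 955 bp upstream of its start. It had 93.6, 73.8, 77.1 and 80.8 ppm in Cvi-0 and 31.6, 26.7, 33.6 and 29.6 ppm in Bur (log2 ratio 1.42). The pseudo-response regulators TOC1 (17.6 ppm in Cvi-0 against 10.01 in Bur) and PRR5 (18.8 against 10.8 in Bur) had log2 ratios of 0.81 and 0.79. TOC1 was placed on the reference through its Bur site, since its Cvi-0 site had no reference position of its own. ELF4, a subunit of the evening complex, was closest between the accessions, with 12.4, 10.5, 11.2 and 14.5 ppm in Cvi-0 and 10.4, 7.63, 10.3 and 9.40 ppm in Bur. Its ratio of 0.37 lay below the median of all matched sites.

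Of 21 antenna and Rubisco small subunit genes, 6 had a site in all 8 files, and all 6 were higher in Cvi-0 with files apart, 3 of them 2-fold, with a median log2 ratio of 1.148. Over all matched sites 62% were apart in that direction, 16.4% were 2-fold higher and the median was 0.66. Beside CAB1 these were LHCB2.1 (21.5 ppm in Cvi-0 against 8.35 in Bur), LHCB4.1 (log2 ratio 0.97), LHCA2 (18.0 against 9.76 in Bur) and LHCA4 (33.7 against 19.9 in Bur), whose proteins bind chlorophyll in the antennae of the photosystems. RBCS3B, 1 of a cluster of near-identical genes for the small subunit of the carbon-fixing enzyme, had 34.1, 26.2, 31.2 and 28.5 ppm in Cvi-0 and 11.8, 11.9, 12.1 and 12.2 ppm in Bur. LHCB2.1 and RBCS3B have close copies, so their levels may be shared with those. The common direction covers only sites listed in all 8 files. By reference positions of each accession's own sites, 17 of the 21 genes had a Cvi-0 site and 13 a Bur site within 1 kb. The Cvi-0 count leaves out LHCA4, whose Cvi-0 site had no reference position of its own. RBCS1A was close between the accessions, with 10.5 ppm in 3 Cvi-0 files and 10.2 ppm in 4 Bur files. LHCA4 was placed on the reference through its Bur site.

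Of 11 flowering time genes, 1 had a site in all 8 files. This was FRI (AT4G00650, chr4:268901-271503, + strand), which delays flowering by raising FLC and differs in function between accessions. Its site, 667 bp upstream of the start, had 53.3, 48.2, 35.7 and 50.7 ppm in Cvi-0 and 19.8, 24.3, 21.9 and 25.4 ppm in Bur (log2 ratio 1.04). Of 8 glucosinolate genes, the defence compounds of the mustard family, AT2G25450 was the member with such a site, at 16.6 ppm in Cvi-0 and 7.77 in Bur. For the other genes of the 4 lists no site matched in all 8 files within 1 kb of the start, which is no evidence that the promoter was closed.

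**Figure D5:**
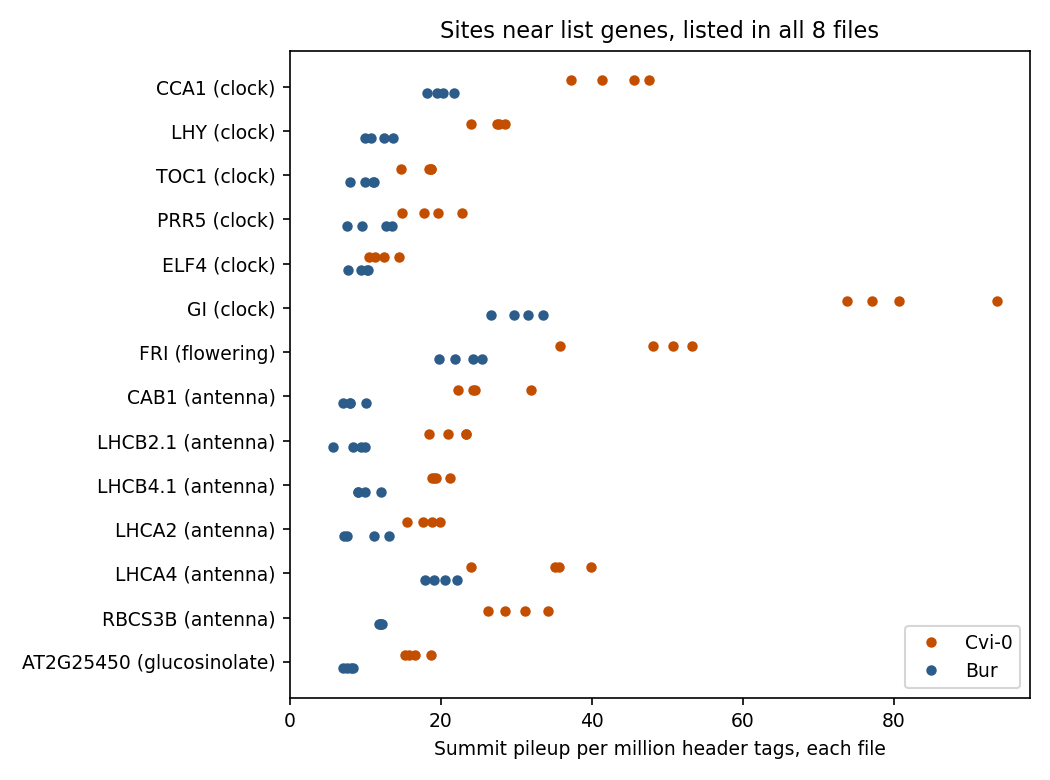
Summit pileup (ppm) in each file at the sites next to list genes that are listed in all 8 files, with Cvi-0 above Bur in each row. The Cvi-0 points lie to the right of the Bur points in all 14 rows, and GI stands highest with 81.3 ppm in Cvi-0 and 30.4 in Bur.

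Sites of 1 accession without a counterpart were sought last. After the local offset, and with no site of the other accession within 1 kb through the reference position, 957 of 6703 Cvi-0 sites (14.3%) and 133 of 3435 Bur sites (3.87%) had none. Most were low, with medians of 9.17 ppm in Cvi-0 and 9.30 in Bur. At 20 ppm or more there were 49 such sites in Cvi-0 and 7 in Bur. Among these high sites 30.6% in Cvi-0 and 71.4% of the 7 in Bur were pericentromeric, against 11.8% of all Cvi-0 sites and 36.7% of all Bur sites at that level. Of the unmatched sites at any level, 96.4% in Cvi-0 and 89.5% in Bur were within 1 kb of a site of at least 1 of the 5 reference-named accessions, against 99.4% of all Cvi-0 sites and 99.3% of all Bur sites with an offset.

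The highest site of Cvi-0 with no Bur counterpart was at chr2:3186637-3187366 on the Cvi-0 sequence, with 55.9, 52.9, 53.1 and 52.3 ppm, 46817 bp from the nearest Bur site, and no reference-named accession listed it. It lies in the stretch of chromosome 2 described above, where nuclear and mitochondrial reads cannot be kept apart with certainty. The next 4 averaged 36.6, 36.0, 35.8 and 32.7 ppm, and the last of these was next to AT2G07672, an uncharacterized gene of the same stretch. The highest site of Bur with no Cvi-0 counterpart, at chr3:13584284-13584727 on the Bur sequence, had 135, 130, 114 and 102 ppm, but a Cvi-0 site lay only 1196 bp away. The next 4 averaged 94.5, 65.9, 40.6 and 26.5 ppm, and their nearest Cvi-0 sites were 1005.5, 1724.5, 1578.5 and 3158.5 bp away, so 4 of the 5 lie not far past the 1 kb limit. The last of them was at the start of AT4G15240, a glycosyltransferase gene. A sequence that is missing from the other accession's assembly and chromatin that is closed there cannot be told apart from these lists.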

How the data were processed

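The authors mapped ATAC-seq reads to the genome of each accession and called peaks per file, with Bowtie 1.2.2 and MACS2 2.1.2 and the build label TAIR10 per the submitters' processing notes. The deposited lists give pileup (an unscaled signal), fold enrichment (the ratio of pileup to local background), -log10 p-value and -log10 q-value, with a q-value cutoff of 0.05 and a genome size of 135000000 in the headers. Pileup was divided by header tags and given per 1000000 tags (ppm). Tags and fragment lengths came from the headers, and genome shares use 119146348 bp, the length of the 5 reference chromosomes. Organelle peaks stayed out of nuclear values.

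Chromosomes were turned where the reversed sequence aligned better with Og. The design had taken positions as they are, and the turning was chosen after the files showed reversed sequences. Window offsets used 100 kb windows and at least 2 agreeing pairs of summits. A site took the median offset of its 6 nearest pairs within 150 kb, at least 3 of them within 100 bp of it, sites join summits within 100 bp, and sites match within 50 bp. Named sites are the 10 largest and 10 smallest ratios in all 8 files, the 5 highest unmatched sites of each accession and the list genes with a site. Genes needed a reference-named summit within 1 kb of a TAIR10.1 start. Where a Cvi-0 site had no reference position of its own, that of the matched Bur site was taken. For unmatched sites, a check through the reference position was added, since offsets jump in places. The members and lists were chosen with earlier results of these data known. Alternatives were q-values of 0.01 and 0.001, each replicate left out, 5000 highest peaks, peaks wider than the fragment length, merged regions, other windows, minimums, pericentromere widths, scalings and match distances. Python 3.11.15, NumPy 2.4.6, pandas 2.3.3, SciPy 1.17.1 and matplotlib 3.10.9 were used, and the code was tested on simulated data.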

Additional observations from a re-analysis of the deposited data

Results flagged for a closer look

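Of 40 values screened in groups of 4 files, 3 had a file far from the other three by Dixon's ratio, and chance flags about 1 in 20 groups. Cvi-0 replicate 3 had a pericentromeric share of 7.82%, above the other Cvi-0 files. Cvi-0 replicate 3 had 126 mitochondrial peaks, and Bur replicate 3 had 129, each above the other files of its accession. Without Cvi-0 replicate 3 the pericentromeric difference between Cvi-0 and Bur was -2.135 percentage points.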

How the results depend on the processing

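No paired analysis was possible because the 4 files of an accession behave as draws from 1 library and no test between files was made. With no chromosome turned, the pericentromeric difference changed direction to 1.268 percentage points, and 6 and 8 windows were 2-fold higher and lower in Cvi-0. Among the 5000 highest peaks, the ratios of Cvi-0 to Bur were 1.159 for width, 0.9521 for spacing and 0.9521 for spacing times peaks, and the differences were -1.51 points for the pericentromere and -0.645 (direction changed), 1.43, -1.22, -0.155 and 0.59 points for chromosomes 1 to 5. Within 1.5 and 3.5 Mb of the centromeres, a smaller and a larger region, the difference was -1.332 and -3.123 points. Without the chromosome 2 window from 3 to 3.5 Mb, left out after seeing the data, the difference within 2.5 Mb was -1.673 points. Windows of 250 kb gave 4 higher and 1 lower, no minimum of peaks gave 2 lower, and peaks wider than the fragment length gave 1 lower and a ratio of spacing times peaks of 0.9784. Merged regions gave 0.5165 points for chromosome 5.

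The ratio of median pileup was 0.809 (direction changed) when scaled by the 3000 highest summits and 1.041 without scaling. Relative to the median, 5 and 72 matched sites were 2-fold higher and lower in Cvi-0, and without the AT2G07 sites 3 were lower. Matching within 25 bp gave 35.67% of Cvi-0 and 41.98% of Bur sites matched and 214 sites 2-fold higher, and within 100 bp 77.95% and 88.15%. A q-value of 0.001 gave 58.04% of Cvi-0 sites matched.

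Leaving out each replicate in turn gave 54.08% to 55.87% of Cvi-0 sites and 64.75% to 66.78% of Bur sites matched, where other sites qualify as listed in every file. It gave 325 to 376 matched sites 2-fold higher and 4 to 6 lower, and 0 to 1 windows 2-fold higher and 0 to 1 lower. 1 window was 2-fold lower without Cvi-0 replicate 1 and without Cvi-0 replicate 3, and 1 was higher without Bur replicate 4. Of the other values, 192 for main results and 373 for single sites moved by less than the spread between files, or stayed within 1.5 times for counts. The cause of these changes was not tested. The 1909898 to 2145427 tags per file limit what low peaks can show: a peak listed in one accession and not in the other may lie just under the threshold there.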
